A study of Mus musculus with 24 samples.

Results

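The question examined was which responses of mouse liver to obeticholic acid differ between wild-type mice and mice without the bile acid receptor FXR. All 24 of the 24 arrays in the series enter it, since each belongs to 1 of 4 groups of 6: wild-type vehicle, wild-type OCA, FXR-knockout vehicle and FXR-knockout OCA. Obeticholic acid (OCA, INT-747) is a semi-synthetic bile acid and a potent FXR agonist. Per the labels the animals were male C57BL/6 mice of 9 to 12 weeks on chow, wild type or FXR-/-, and were gavaged once a day for 7 days with OCA at 10 mg/kg/day or with vehicle alone, 1% methyl cellulose. All 4 groups therefore share the gavage, the strain and the diet. How the deletion was made, and whether knockout and wild-type animals were littermates, the sources used here do not say. Each array held liver RNA of 1 mouse, so the spread within a group is a spread between animals.

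FXR, encoded by Nr1h4, is a nuclear receptor of hepatocytes and intestinal cells that binds bile acids and acts on target genes mostly together with RXR. In liver it induces Nr0b2, which encodes the repressor SHP, and exporters of bile salts such as the pump encoded by Abcb11 and the exchanger formed by Slc51a and Slc51b. Through SHP, and through an intestinal growth factor that signals to hepatocytes, its activation lowers the synthesis enzymes Cyp7a1 and Cyp8b1. An agonist response that needs the receptor would appear as a difference between the OCA effects of the genotypes, and that difference is the measure used throughout.

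For each gene the difference was taken as the OCA effect in wild type (OCA minus vehicle) minus the OCA effect in knockout, on the log2 scale of the deposited signals. A positive difference means that OCA moved the gene further up, or less far down, in wild type. Levels are log2 signals of 1 probe set per gene, the one with the highest mean, and are compared only between groups and never between genes. The median gene stood at 5.28, and since no detection calls were used, levels near 3 may be background. In bulk liver, fewer cells of a type and less RNA per cell cannot be told apart.

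The promoters of 5 genes were read from RefSeq (GRCm38.p6), which held all 5: Slc51b, Enpp6, Cyp8b1 and Sccpdh, which mark this contrast, and the FXR target Nr0b2. They are shown because FXR with RXR recognises inverted repeats of a 6-base motif. The motif AGGTCA, its looser form AGNTCA and the inverted repeat of AGNTCA with 1 base between the copies were searched on both strands, and every AGGTCA is also an AGNTCA. The lines below give the 250 bases upstream of the annotated start, 5′ to 3′ on the strand of the gene, with AGNTCA matches of either strand in capitals. The regions are chr9:65422774-65423023 (minus strand) for Slc51b, chr8:46986637-46986886 (plus strand) for Enpp6 and chr9:121916306-121916555 (minus strand) for Cyp8b1.
Slc51b: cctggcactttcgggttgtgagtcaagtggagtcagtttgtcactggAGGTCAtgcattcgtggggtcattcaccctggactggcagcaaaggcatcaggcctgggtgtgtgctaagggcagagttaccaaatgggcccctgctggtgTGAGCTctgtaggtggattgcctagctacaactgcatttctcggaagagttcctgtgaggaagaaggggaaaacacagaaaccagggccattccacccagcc
Enpp6: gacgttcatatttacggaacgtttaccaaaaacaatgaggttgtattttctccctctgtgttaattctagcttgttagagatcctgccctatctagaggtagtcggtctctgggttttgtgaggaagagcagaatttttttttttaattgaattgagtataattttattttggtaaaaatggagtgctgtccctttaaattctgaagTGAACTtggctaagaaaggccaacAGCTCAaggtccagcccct
Cyp8b1: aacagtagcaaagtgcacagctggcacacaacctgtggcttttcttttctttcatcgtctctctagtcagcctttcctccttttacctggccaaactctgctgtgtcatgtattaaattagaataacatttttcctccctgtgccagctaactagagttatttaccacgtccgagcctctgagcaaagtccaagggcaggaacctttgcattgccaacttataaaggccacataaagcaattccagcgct
Slc51b held AGGTCA starting 203 bases before the start and a reverse-strand match, read as TGAGCT, at 102 bases before it. Enpp6 held TGAACT at 43 and AGCTCA at 19 bases before the start. Cyp8b1 had no match upstream and 1 AGNTCA match within 50 bases after the start, and Nr0b2 and Sccpdh had none in the window searched. Of 32851 promoters of the same length (250 bases before and 50 after the start), 46.6% held AGNTCA, 16.3% held AGGTCA and 0.0304% held the inverted repeat. None of the 5 windows held the inverted repeat, which says only that these letters are not there.

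The knockout cannot be read from Nr1h4 itself on these arrays. Its signal had group means ± SD of 10.14 ± 0.12 in wild-type vehicle, 10.07 ± 0.16 in wild-type OCA, 9.97 ± 0.11 in knockout vehicle and 9.92 ± 0.09 in knockout OCA. The sources used here do not place its probe set relative to the deleted part, so the signal checks nothing. The receptor's target Nr0b2 did separate the labelled genotypes, with every knockout array below every wild-type array.

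No gene passed for the difference itself: 0 of 18820 genes (0%) had an adjusted p below 0.05 (limma with Benjamini-Hochberg adjustment). At adjusted p below 0.10 there were 5 genes (0.0266%), namely Cyp8b1, Enpp6, Sccpdh, Far2 and the predicted gene 3930402G23Rik. Before adjustment 1140 genes (6.06%) had p below 0.05, 528 of them (2.81%) with a positive and 612 (3.25%) with a negative difference. Of these 1140 genes, 708 (62.1%) had the larger OCA effect in wild type and 1026 (90%) had effects of opposite sign, which ranking on a difference favours. The median standard error of a difference was 0.133, against 0.0942 for the effect in 1 genotype, because a difference draws on all 4 groups. Leaving out 1 array gave 0 to 3 called differences, 3 without wild-type vehicle replicate 2 or 6 or knockout OCA replicate 4. Differences below are therefore given as sizes with 95% intervals, and a named interval that excludes 0 is not a gene called over the whole table.

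The calls within each genotype did not coincide. In wild type 13 genes (0.0691%) passed, 6 higher (0.0319%) and 7 lower (0.0372%). That count depends on the layout of the arrays described below: blocking by array code number gave 667 genes (3.54%), and the same block gave 77 (0.409%) once wild-type vehicle replicate 6 was dropped. In knockout 3 genes (0.0159%) passed, 1 higher (0.00531%) and 2 lower (0.0106%). All 13 wild-type genes had a smaller effect in knockout, and for all 13 the knockout interval included 0 and excluded the wild-type effect. Those 13 were picked for their wild-type effect, which makes a smaller second value likely, so their count supports nothing about the difference. Single arrays moved these counts: 2 genes passed in wild type without wild-type OCA replicate 5 and 21 without wild-type vehicle replicate 5, and 0 passed in knockout without knockout OCA replicate 6 or knockout vehicle replicate 2. In 86 genes (0.457%) the wild-type OCA and vehicle arrays did not overlap, in 123 genes (0.654%) the knockout arrays did not, and in 0 genes (0%) did both hold.

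**Figure D1:**
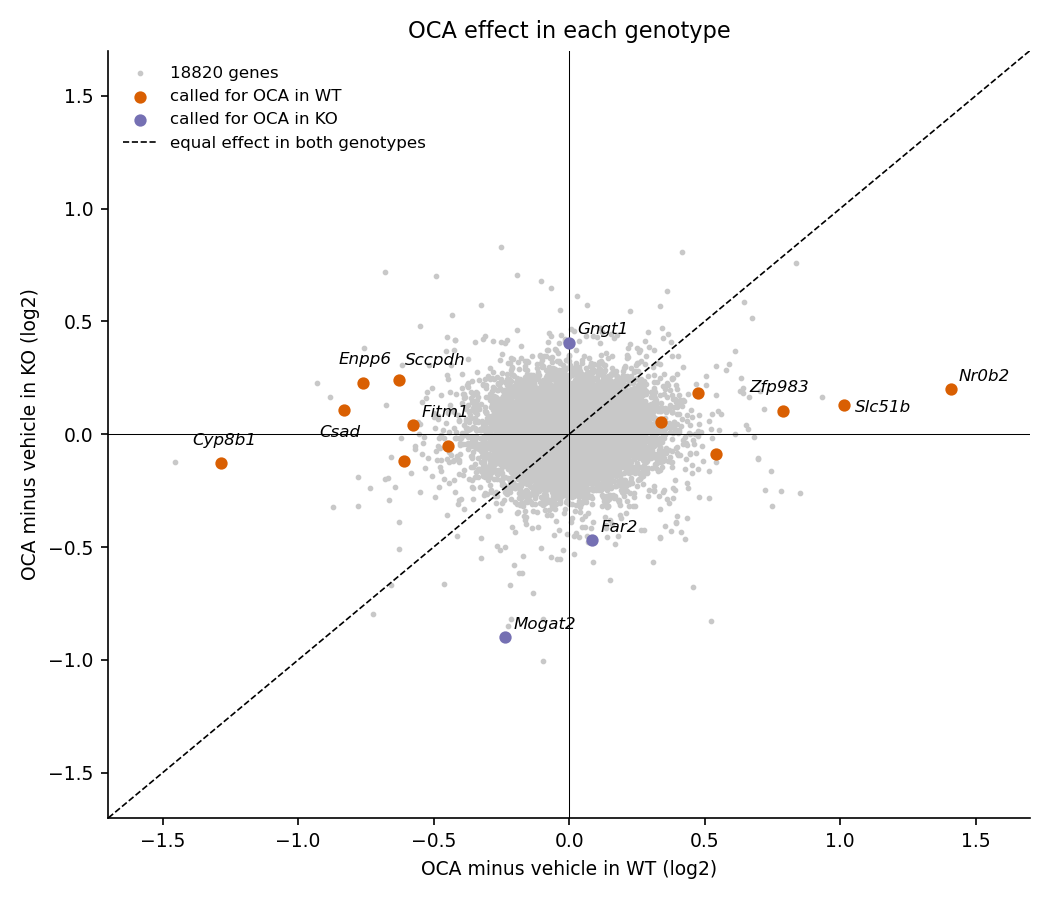
OCA effect in wild type (x axis, log2) against OCA effect in knockout (y axis, log2) for 18820 genes, each point 1 gene, with the 13 genes called in wild type in orange, the 3 called in knockout in purple and a dashed line where both effects are equal. Genes far to the left or right, such as Cyp8b1 at -1.28 and Nr0b2 at 1.41 in wild type, lie near 0 in knockout (-0.13 and 0.20), while Mogat2 at -0.90 is the gene lowest in knockout among those marked.

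In the 4-group model 4 genes of the bile acid response passed for OCA in wild type and had knockout intervals that included 0. They were Nr0b2, Slc51b, Cyp8b1 and Csad. As given below, Nr0b2 and Csad no longer passed in wild type without wild-type vehicle replicate 6. The differences ranged from -1.15 for Cyp8b1 to 1.21 for Nr0b2. Knockout arrays began from another level in all 4 genes, lower for Nr0b2 and Slc51b and higher for Cyp8b1 and Csad.

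Nr0b2 encodes SHP, the repressor through which FXR lowers bile acid synthesis. Its lowest, median and highest levels were 5.87, 6.56 and 7.30 in wild-type vehicle and 7.31, 8.02 and 8.62 in wild-type OCA. In knockout they were 3.40, 4.03 and 4.60 under vehicle and 3.57, 4.01 and 4.82 under OCA. These knockout levels lay below the median gene at 5.28, and whether background narrowed the knockout effect was not tested. The wild-type groups were adjacent without overlap, the knockout groups overlapped almost fully, and all knockout arrays lay below all wild-type arrays. The OCA effect was 1.41 ± 0.25 (SE; adjusted p = 0.0244) in wild type and 0.20, with a 95% interval from -0.32 to 0.72, in knockout. The difference was 1.21 ± 0.36 (0.47 to 1.95) and did not pass (adjusted p = 0.495).

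Slc51b encodes the β subunit of the basolateral bile acid exchanger. Wild-type vehicle arrays lay at 4.42, 4.68 and 4.96 (lowest, median, highest) and wild-type OCA arrays at 5.23, 5.66 and 6.12. Knockout vehicle arrays lay at 3.11, 3.57 and 3.92 and knockout OCA arrays at 3.57, 3.63 and 3.97. Every wild-type OCA array exceeded every wild-type vehicle array, whereas the knockout groups overlapped. The knockout levels, at 3.11 to 3.97, may be near background, and whether this narrowed the knockout effect was not tested. OCA raised the gene by 1.02 in wild type (adjusted p = 6.99e-04), and in knockout its effect was 0.13 (-0.15 to 0.40). The difference was 0.89 ± 0.19 (0.50 to 1.28; adjusted p = 0.168). Slc51a, the α subunit, stood near 3 in all groups, with a difference of -0.20 (-0.46 to 0.05), so nothing can be read from it.

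For Abcb11, the canalicular bile salt pump, the OCA effects of the genotypes were nearly equal. The OCA effect was 0.18 ± 0.12 in wild type and 0.20 ± 0.12 in knockout, and neither passed (adjusted p = 0.691 and 0.985). The difference was -0.02 with an interval from -0.37 to 0.32, and its sign turned in other settings. An Abcb11 difference of the size seen for Slc51b lies outside that interval. Of 19 measured bile acid and organic ion transporters, 3 had a positive and 1 a negative difference at unadjusted p below 0.05. Over all genes 2.81% were positive and 3.25% negative at that level. The list median was 0.09. The 3 were Slc51b, the uptake carrier Slco2b1 (0.23 ± 0.09) and the efflux pump Abcb1a (0.55 ± 0.26), and the 1 was the efflux pump Abcg2 (-0.29 ± 0.12).

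Cyp8b1 encodes the sterol 12α-hydroxylase that directs bile acids towards cholic acid, and it had the smallest p for the difference among all genes. Its levels were 10.62, 10.73 and 11.51 in wild-type vehicle and 9.09, 9.70 and 10.05 in wild-type OCA. In knockout they were 11.62, 11.66 and 11.77 under vehicle and 11.43, 11.49 and 11.73 under OCA. Wild-type OCA arrays all lay below wild-type vehicle arrays, and among wild-type arrays only vehicle replicate 4, at 11.51, reached the knockout range. OCA lowered the gene by 1.28 ± 0.14 in wild type (effect -1.28, adjusted p = 3.74e-05), and the knockout effect was -0.13 (-0.42 to 0.16). The difference was -1.15 ± 0.20 (-1.56 to -0.75), which is 2.23-fold, with adjusted p = 0.0841. With 1 of 24 arrays left out it ranged from -1.25 to -1.03 and passed in 5 of the 24 fits, among them the fit without wild-type vehicle replicate 6 (-1.18, adjusted p = 0.0396).

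Cyp7a1, which catalyses the limiting step from cholesterol to bile acids, was too variable in wild type to place. Its wild-type vehicle arrays ran from 8.52 to 11.08 (median 10.34) and its wild-type OCA arrays from 8.01 to 10.41 (median 9.61). Knockout arrays were tighter, from 11.13 to 11.61 under vehicle and from 10.98 to 11.42 under OCA. The difference was -0.47 ± 0.49 (-1.49 to 0.54), and it was 0.48 when arrays were blocked by the array code number described below, so its direction is not settled. Of 16 measured genes of bile acid synthesis, 0 had a positive and 2 a negative difference at unadjusted p below 0.05. Over all genes 2.81% were positive and 3.25% negative at that level. The 2 negative genes were Cyp8b1 and the early-step dehydrogenase Hsd3b7 (-0.30 ± 0.14). The list median was -0.08.

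Csad encodes an enzyme on the route to taurine, with which mouse liver conjugates bile acids. Csad levels were 9.23, 9.89 and 10.12 in wild-type vehicle and 8.32, 9.09 and 9.61 in wild-type OCA. They were 10.71, 10.93 and 11.10 in knockout vehicle and 10.90, 11.00 and 11.18 in knockout OCA. The wild-type groups overlapped in part, and all knockout arrays lay above all wild-type arrays. OCA lowered Csad in wild type (-0.83 ± 0.16, adjusted p = 0.0361), and the knockout effect was 0.11 (-0.22 to 0.44). The difference was -0.94 ± 0.23 (-1.40 to -0.47; adjusted p = 0.273). Over all genes 2.81% had a positive and 3.25% a negative difference at unadjusted p below 0.05. Across the 8 measured genes of taurine supply and conjugation, 2 had a positive and 2 a negative difference at that level. The positive count was 0 to 2 in the fits without 1 array, 0 without wild-type vehicle replicate 6 and in 6 others. Cdo1, the step before Csad, stood at -0.08 ± 0.09.

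**Figure D2:**
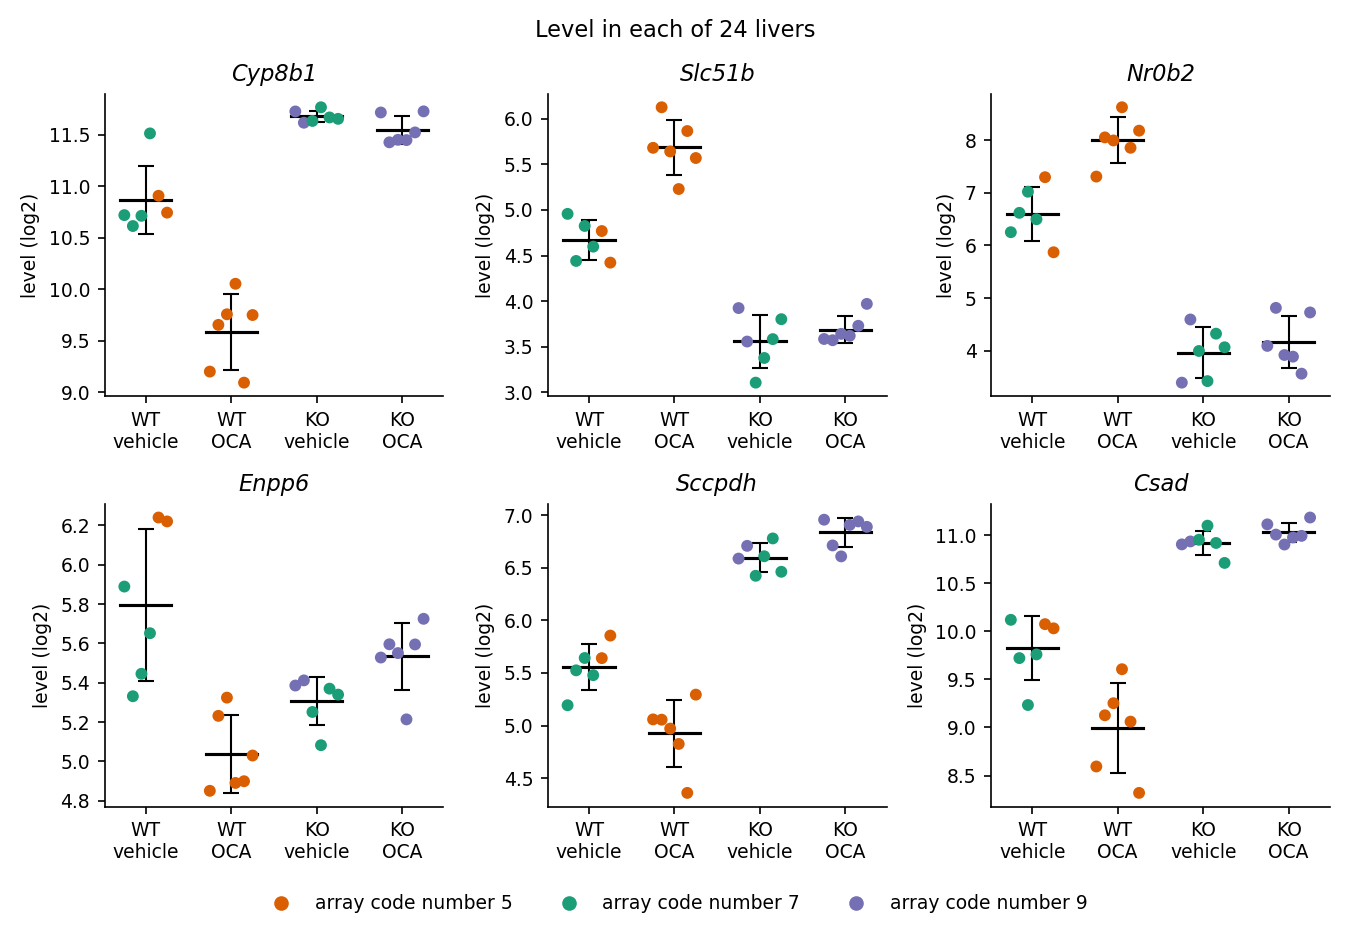
Log2 signal per array (points, coloured by array code number) in the 4 groups for the genes named in the panels, with bars for mean ± SD (n = 6). For Cyp8b1, Slc51b and Nr0b2 the wild-type OCA arrays stand apart from the wild-type vehicle arrays, while the knockout groups overlap.

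Enpp6 and Sccpdh, which have no established place in bile acid handling, ranked 2 and 5 by p for the difference, with Far2 at 3, and in both genes the OCA effects of the genotypes had opposite signs. Enpp6 encodes a choline-specific glycerophosphodiesterase. Its levels were 5.33, 5.77 and 6.24 in wild-type vehicle and 4.85, 4.96 and 5.32 in wild-type OCA, against 5.08, 5.35 and 5.41 in knockout vehicle and 5.21, 5.57 and 5.73 in knockout OCA. The wild-type groups did not overlap and the knockout groups did. OCA lowered Enpp6 in wild type (-0.76 ± 0.13, adjusted p = 0.0204) and stood at 0.23 (-0.04 to 0.50) in knockout. The difference was -0.99 ± 0.19 (-1.37 to -0.60; adjusted p = 0.095).

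Sccpdh encodes a putative oxidoreductase. Wild-type levels were 5.19, 5.58 and 5.85 under vehicle and 4.36, 5.01 and 5.29 under OCA, and knockout levels were 6.42, 6.60 and 6.78 under vehicle and 6.61, 6.90 and 6.96 under OCA. Both pairs of groups overlapped in part, and the genotypes were apart throughout. OCA lowered it in wild type (-0.63 ± 0.12, adjusted p = 0.033), and the knockout effect was 0.24 (-0.00 to 0.49). The difference was -0.87 ± 0.17 (-1.22 to -0.52; adjusted p = 0.0975).

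The spread between animals was larger in wild type. The median SD over genes was 0.176 in wild-type vehicle and 0.156 in wild-type OCA, against 0.13 in knockout vehicle and 0.135 in knockout OCA. For Cyp8b1 the pooled SD was 0.348 in wild type and 0.106 in knockout, for Csad 0.404 and 0.113, and for Nr0b2 it was 0.474 and 0.489. The model uses 1 spread for all groups, so its intervals are narrow for wild-type effects and wide for knockout effects of genes like Cyp8b1. With 1 weight per genotype, a setting chosen after this was seen, Cyp8b1 alone (0.00531% of genes) passed for the difference (adjusted p = 0.0269), and 2 genes (0.0106%) passed in wild type.

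The layout of the arrays bears on the difference. Array codes end in 5, 7 or 9, and the sources used here do not say what the number stands for. All wild-type OCA arrays carried number 5 together with wild-type vehicle replicates 5 and 6, all knockout OCA arrays carried number 9 together with knockout vehicle replicates 1 and 2, and the other 4 vehicle arrays of each genotype carried number 7. The names of 4 arrays carry a further ending, _2, whose meaning the sources used here do not give. They are wild-type OCA replicate 4 and knockout OCA replicates 3, 5 and 6, and no vehicle array carries it. With the number as a block, the OCA effect of each genotype rests on the 2 vehicle arrays that share its number. In that fit 34 genes (0.181%) passed for the difference, 22 positive and 12 negative. Enpp6 was among them (-1.33 ± 0.20, adjusted p = 0.0122). The 2 wild-type vehicle arrays of number 5 had the highest Enpp6 levels of their group, 6.24 and 6.22, against 5.33 to 5.89 in those of number 7. Cyp8b1 (-1.12, adjusted p = 0.0878), Slc51b (1.14, adjusted p = 0.0635), Sccpdh (-1.01, adjusted p = 0.0635), Nr0b2 (1.24, adjusted p = 0.309) and Csad (-1.17, adjusted p = 0.106) kept their sign but did not pass. One of the 2 wild-type vehicle arrays of number 5, replicate 6, stood apart from its group, with 532 genes over 2-fold from the mean of the rest against 2 to 90 in other arrays. With the block and without it 12 genes (0.0638%) passed, and the wild-type side then rests on 1 vehicle array. Enpp6 passed in that fit too (-1.34 ± 0.24, adjusted p = 0.0296). The Nr0b2 difference there was 0.53 ± 0.56 (adjusted p = 0.836), and its wild-type effect was 0.705 (adjusted p = 0.592). Of the other wild-type calls, Cyp8b1 (adjusted p = 0.0336) passed there, while Slc51b (0.104), Csad (0.12) and Sccpdh (0.158) did not. Without replicate 6 and with no block, Nr0b2 (1.26, adjusted p = 0.0526), Csad (-0.79, 0.0648) and Sccpdh (-0.57, 0.0647) no longer passed in wild type.

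Beyond these genes, the 10 largest-ranked positive and 10 largest-ranked negative differences among genes at or above the median level had effects of opposite sign in the 2 genotypes in 19 of 20 cases. This follows in part from ranking on the difference, and no member passed. The positive side was led by Vaultrc5, a vault RNA (0.75 ± 0.15), the surface proteins Plet1 (0.76 ± 0.15) and Cd24a (0.70 ± 0.15), the glycosyltransferase Gcnt2 (0.63 ± 0.14) and the double-strand break repair factor Paxx (0.68 ± 0.15). The remaining members were cyclin D1 (Ccnd1, 1.03 ± 0.25), the myosin Myo9b (0.35 ± 0.09), the lipid transfer protein Vps13d (0.27 ± 0.07), fibrocystin (Pkhd1, 0.60 ± 0.16) and the ephrin receptor Epha1 (0.53 ± 0.14). Their adjusted p-values lay between 0.135 and 0.378.

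All 10 positive genes had wild-type intervals that excluded 0, and for 5 of them the knockout interval excluded 0 too, on the other side. Ranking on the difference favours both, so these counts are no result about the genes. Over all genes, 9.47% had unadjusted p below 0.05 in wild type and 5.14% in knockout. In both genotypes with opposite signs there were 45 (0.239%). Gcnt2 had a knockout interval that included 0, and Cd24a had one that excluded it. Gcnt2, which makes the branched I antigen, lay at 7.69 to 8.09 in wild-type vehicle and at 8.21 to 8.61 in wild-type OCA, with no overlap, and its knockout groups overlapped at 7.17 to 7.66 and 7.01 to 7.52. It rose in wild type (0.54 ± 0.10, adjusted p = 0.0244), and the knockout effect was -0.09. Cd24a lay at 6.25 to 6.53 in knockout vehicle and 5.75 to 6.10 in knockout OCA, with no overlap, while its wild-type groups overlapped at 4.90 to 5.30 and 5.10 to 5.81. Its effects were 0.28 (0.06 to 0.49) in wild type and -0.42 (-0.64 to -0.21) in knockout, and neither passed (adjusted p = 0.371 and 0.463).

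The negative side held Cyp8b1, Enpp6, Sccpdh and Csad and 6 further genes, with adjusted p-values between 0.135 and 0.316 for the latter. They were Nt5e, the ectoenzyme that makes adenosine from AMP (-0.88 ± 0.18), the nuclear export receptor Xpo1 (-0.38 ± 0.08), the protease inhibitor Serpinb1a (-0.82 ± 0.18), the netrin Ntn4 (-0.56 ± 0.13), the zinc finger gene Zfp691 (-0.55 ± 0.14) and the GTPase Gimap6 (-0.43 ± 0.11). Nt5e had the largest gap between genotypes among these 6. Its wild-type arrays ran from 5.43 to 6.05 under vehicle and from 4.95 to 5.54 under OCA, and its knockout arrays from 8.04 to 8.59 and from 8.46 to 9.02. Its OCA effects were -0.45 ± 0.13 in wild type and 0.43 ± 0.13 in knockout, and neither passed.

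**Figure D3:**
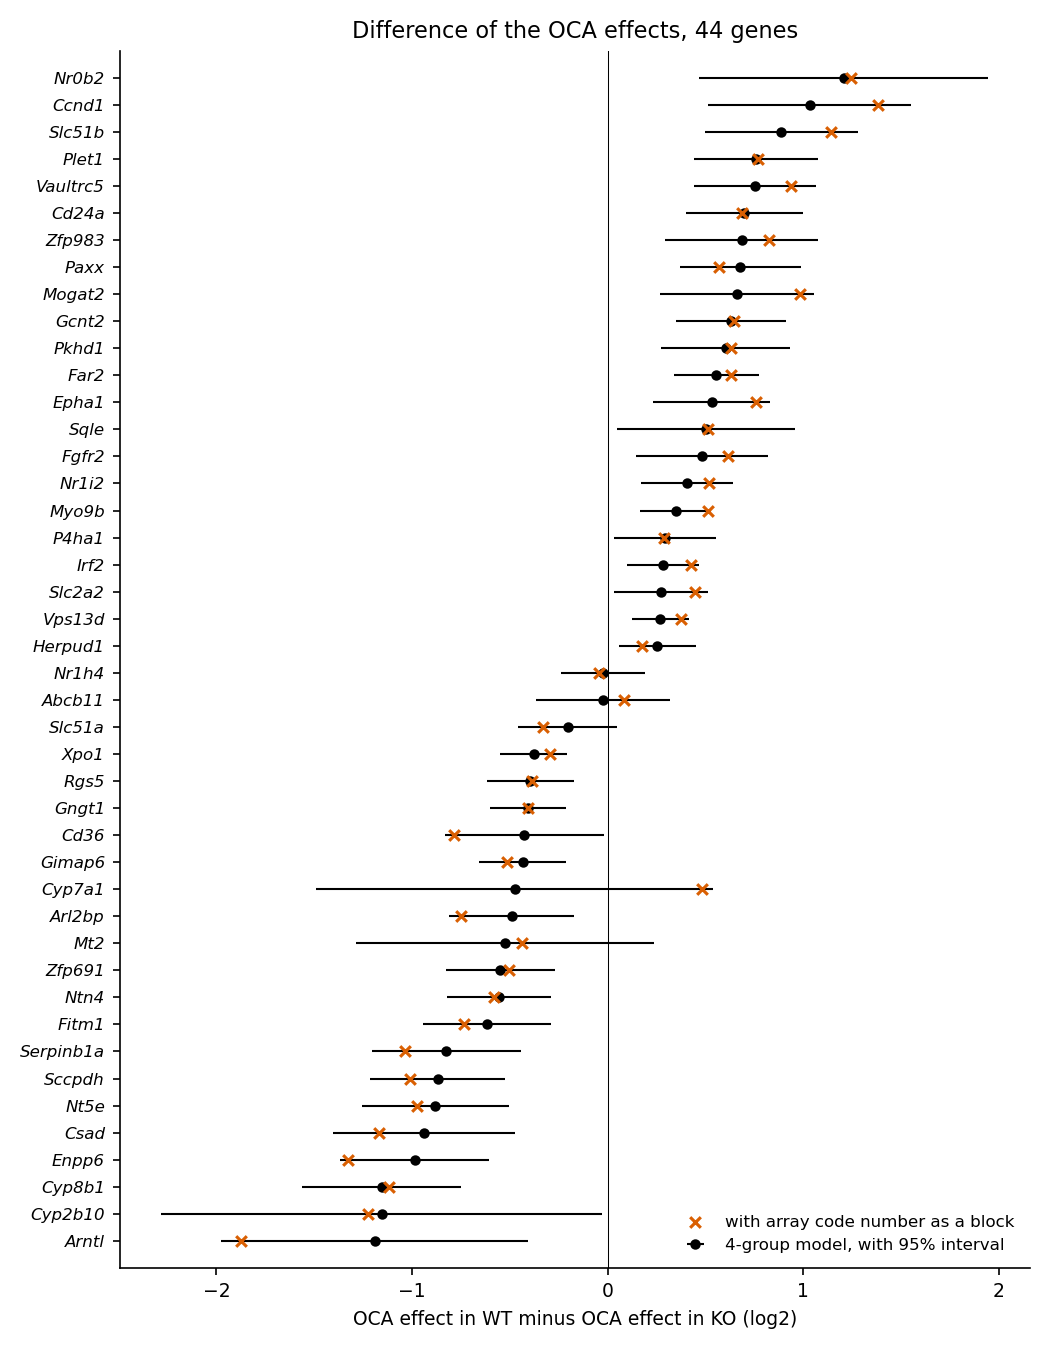
Difference of the OCA effects (wild type minus knockout, log2, x axis) for the 44 named genes; black points with bars are the 4-group model with 95% intervals and orange crosses the fit blocked by array code number. Intervals for Cyp8b1 and Enpp6 lie wholly below 0 and that for Slc51b wholly above it, while the cross for Cyp7a1 lies on the other side of 0 from its black point.

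Of the wild-type calls not yet described, 6 had small effects in knockout. The zinc finger gene Zfp983 had a difference of 0.69 ± 0.19 (0.30 to 1.08), and its wild-type groups did not overlap. Rgs5, a regulator of G-protein signalling typical of pericytes, stood at -0.39 ± 0.11 (-0.62 to -0.17), and Arl2bp, which binds a small GTPase, at -0.49 ± 0.16 (-0.81 to -0.17). For Fitm1, a protein of lipid droplet biogenesis, the difference was -0.62 ± 0.16 (-0.95 to -0.29). P4ha1, a collagen prolyl hydroxylase, had the highest knockout share of its wild-type effect: 0.48 ± 0.09 in wild type, 0.18 ± 0.09 in knockout and a difference of 0.30 ± 0.13. Irf2, an interferon regulatory factor, stood at 0.28 ± 0.09 (0.10 to 0.47). None of these 6 differences passed (adjusted p from 0.331 to 0.769).

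The 3 genes called in knockout all had wild-type intervals that included 0. So did most genes, since only 1782 of 18820 (9.47%) had unadjusted p below 0.05 in wild type. The 3 were picked for their knockout effect, so their count supports nothing about the difference. Mogat2, a monoacylglycerol acyltransferase, fell by 0.90 ± 0.14 in knockout (effect -0.90, adjusted p = 0.0119), from 6.28, 6.57 and 6.75 under vehicle to 5.14, 5.64 and 6.01 under OCA. The knockout groups did not overlap. In wild type it lay between 3.93 and 4.73 in both groups, with an effect of -0.24 (-0.51 to 0.04), and the difference was 0.66 ± 0.19 (0.27 to 1.06; adjusted p = 0.446). Those wild-type levels lay below the median gene at 5.28, and whether background narrowed the wild-type effect was not tested. Far2, a fatty acyl-CoA reductase, fell by 0.47 (adjusted p = 0.0132), with all its arrays between 2.41 and 3.32, near the bottom of the scale. Gngt1, a transducin gamma subunit, rose by 0.41 (adjusted p = 0.0161), with all its arrays between 3.41 and 4.13, also low on the scale. With the number block 0 genes (0%) passed in knockout (Mogat2 -0.89, adjusted p = 0.223; Far2 -0.51, 0.296; Gngt1 0.43, 0.363).

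Averaged over both genotypes, 3 genes passed (0.0159%): Cyp8b1 (-0.71, adjusted p = 0.00348), Slc51b (0.57, adjusted p = 0.0228) and Mogat2 (-0.57, adjusted p = 0.0228). For the first pair the average comes mainly from the wild-type arrays and for Mogat2 mainly from the knockout arrays, as their separate effects show. No gene with an effect of like size in both genotypes was among them. Among all genes 140 (0.744%) had unadjusted p below 0.05 in both genotypes, 95 with the same sign (0.505%) and 45 with opposite signs (0.239%).

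Only 15 genes (0.0797%) had a difference of 1 or more, 6 positive and 9 negative, and 12 of them had unadjusted p below 0.05. They were picked on the size and include noisy genes. Acta2, smooth muscle actin, had the lowest at -1.40 ± 0.40. In knockout its vehicle arrays of number 9 read 8.67 and 8.51, those of number 7 6.80 to 7.68, and the OCA arrays, all of number 9, 7.83 to 9.07. The knockout vehicle arrays thus differed by array number without overlap, and with the number block the difference was -0.64 ± 0.42. Cdkn1a, the cell cycle inhibitor p21, had -1.14 ± 0.79, and -0.32 without wild-type vehicle replicate 6. Usp2, a ubiquitin protease with a daily rhythm, had the highest at 1.35 ± 0.47, and 2.20 ± 0.43 with the block (adjusted p = 0.0416).

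The gene lists, put together with earlier results of these data known, are described by counts and medians beside the background of 6.06% at unadjusted p below 0.05 and the median of -0.01 over all genes. No member of any list passed for the difference in the 4-group model. Of 16 FXR-induced targets 2 had a positive difference at unadjusted p below 0.05, Nr0b2 and Slc51b, and the list median was 0.09. Dropping wild-type vehicle replicate 6 gave a median of 0.03. Blocking by number gave 0.21, with 4 positive members and 1 negative. The counts ran from 2 to 4 positive (4 without wild-type vehicle replicate 2) and from 0 to 2 negative (2 without wild-type OCA replicate 5) in the fits without 1 array. The other 14, among them Abcb4 (0.12 ± 0.11), Abcc2 (0.10 ± 0.12) and Mafg (0.21 ± 0.12), did not reach that level. They did not share a direction, and the lowest difference in the list was -0.645.

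Of 16 measured nuclear receptors 5 had a positive difference at unadjusted p below 0.05 (31.2%, beside 2.81% of all genes) and 0 a negative one. The same counts were found in all 24 fits without 1 array, but those fits share most of their arrays. The receptors were measured in the same animals, so they are not 16 separate observations. With the number block and without wild-type vehicle replicate 6, 3 of 16 were positive, where 9.46% of all genes reached that level in either direction. Beside Nr0b2 these were the xenobiotic receptor PXR (Nr1i2, 0.41 ± 0.11), the RXR partner of FXR (Rxra, 0.22 ± 0.09), the fatty acid receptor PPARα (Ppara, 0.40 ± 0.17) and the oestrogen receptor (Esr1, 0.42 ± 0.17). Their adjusted p-values lay between 0.419 and 0.769. Nr1i2 levels were 8.82, 9.11 and 9.28 in wild-type vehicle and 9.26, 9.40 and 9.41 in wild-type OCA, against 8.69, 8.78 and 8.91 and 8.42, 8.71 and 8.88 in knockout.

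Among lipid pathways, cholesterol synthesis and uptake had 1 of 19 members with a positive difference (Sqle, squalene epoxidase, 0.50 ± 0.22), and 0 to 5 in the fits without 1 array, 5 without wild-type OCA replicate 3. All 19 had the larger absolute effect in wild type, beside 10360 of all 18820 genes (55%). They were measured in the same animals, so they are not 19 separate observations. The mean level of the list ran from 8.74 to 9.37 in wild-type vehicle and from 9.11 to 9.81 in wild-type OCA, with overlap. Its SD was 0.254 and 0.271 there, against 0.06 and 0.076 in knockout vehicle and OCA. The median effect was 0.30 in wild type and 0.07 in knockout, and the median difference of 0.23 became 0.15 without wild-type vehicle replicate 6. Fatty acid and triglyceride synthesis had 2 of 21 with a positive difference (Acaca, 0.40 ± 0.15, and Mogat2), which became 8 of 21 with the number block, where 13% of all genes reached that level. Fatty acid oxidation had 1 of 18, the lipid uptake receptor Cd36 (-0.43 ± 0.20). Cyp4a14, a PPARα target, had a difference of -1.33 ± 0.66 that did not reach unadjusted p below 0.05. Glucose metabolism had 2 of 14 and the FGF receptor axis 1 of 7 (Fgfr2, 0.48 ± 0.16). Xenobiotic enzymes had 1 of 11 (Cyp2b10, -1.15 ± 0.55, with wild-type arrays between 4.17 and 7.86 and knockout arrays between 9.74 and 10.80).

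**Figure D4:**
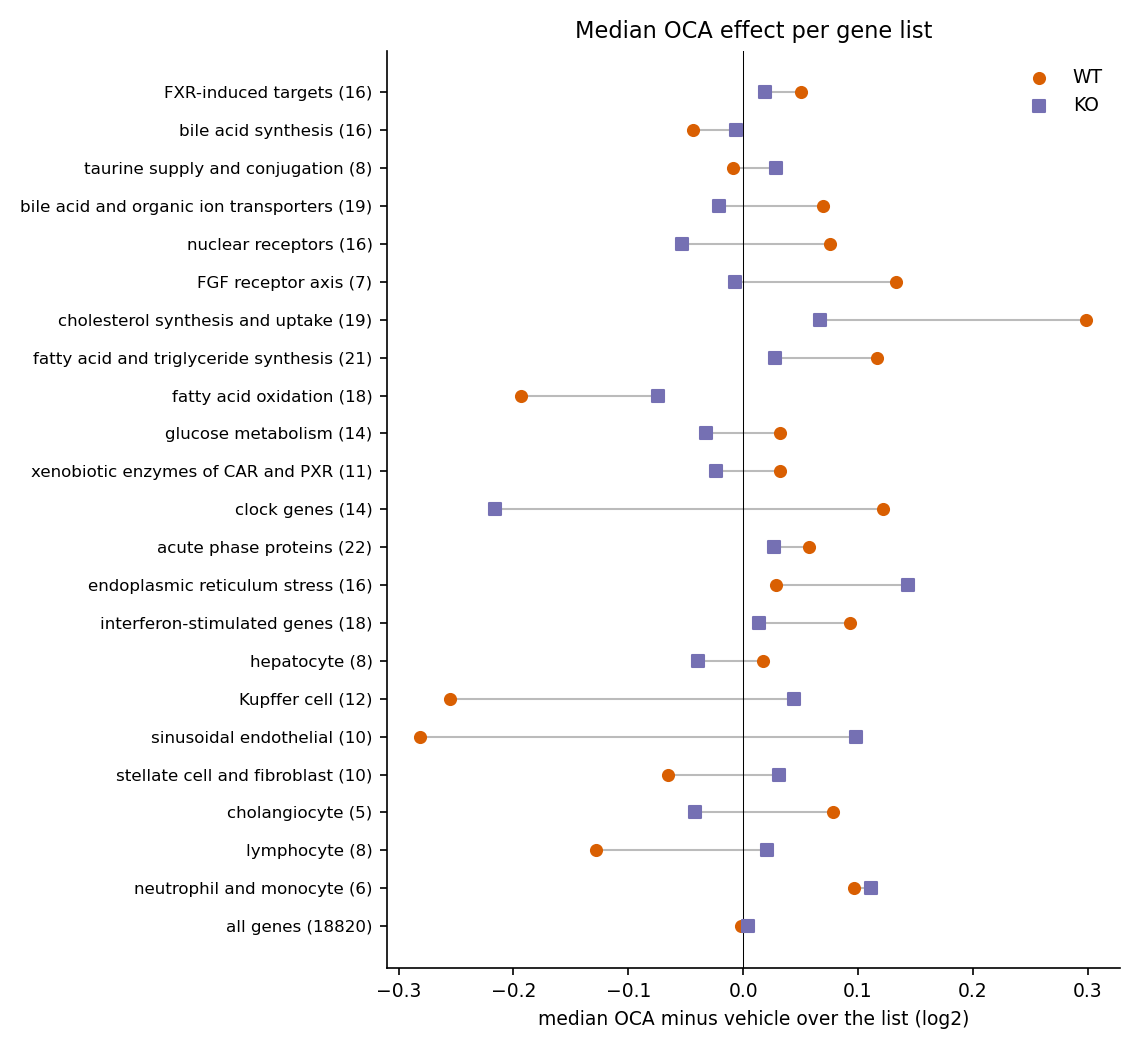
Median OCA effect (OCA minus vehicle, log2, x axis) over the measured members of each list with 5 or more (y axis, number of members in brackets), as orange circles for wild type and purple squares for knockout, joined by a line. The sinusoidal endothelial list lies at -0.28 in wild type and 0.10 in knockout, cholesterol synthesis and uptake at 0.30 and 0.07, and clock genes at 0.12 and -0.22.

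Lists of stress and inflammation had few members past that level. Acute phase proteins had 0 of 22 in either direction, endoplasmic reticulum stress genes 1 of 16 (Herpud1, 0.25 ± 0.10) and interferon-stimulated genes 2 of 18, Irf2 and Irf7 (0.46 ± 0.20). The hepatocyte markers had a mean level over the list between 12.88 and 13.1 in all arrays.

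Markers of other liver cells were listed to read the levels of those cells. Of 10 markers of sinusoidal endothelial cells, 7 had a negative difference at unadjusted p below 0.05 (70%, beside 3.25% of all genes) and 0 a positive one, with a median of -0.37, made up of -0.28 in wild type and 0.10 in knockout. Examples were Oit3 (-0.56 ± 0.18), the VEGF receptor Kdr (-0.41 ± 0.13), the nuclease Dnase1l3 (-0.38 ± 0.12) and the adhesion protein Cdh5 (-0.42 ± 0.16). The markers were measured in the same animals, so they are not 10 separate observations. The mean level of the list ran from 8.37 to 8.74 in wild-type vehicle and from 8.18 to 8.40 in wild-type OCA, and from 8.11 to 8.53 in knockout vehicle and from 8.33 to 8.60 in knockout OCA, so the groups of each genotype overlapped. The count was 6 without wild-type vehicle replicate 6 and 4 to 7 in the fits without 1 array. It was 4 with the number block, where 13% of all genes reached that level in either direction. Wild-type vehicle arrays of numbers 5 and 7 did not overlap for Cdh5, Clec4g, Dnase1l3, Oit3, Pecam1 and Stab2. They overlapped for Fcgr2b, Kdr, Lyve1 and Stab1. Over all genes, 19.2% did not overlap. Knockout vehicle arrays of numbers 9 and 7 did not overlap for Clec4g, Kdr and Pecam1 and overlapped for the other endothelial markers. Over all genes, 19.7% did not overlap there. The 12 Kupffer cell markers had 0 in either direction and a median of -0.33, which became -0.83 with 7 negative members under the block and -0.19 without wild-type vehicle replicate 6. Single arrays moved both values: without wild-type OCA replicate 6 there were 7 negative members and the median was -0.48, and without knockout OCA replicate 3 there were 0 and it was -0.16. Wild-type vehicle arrays of numbers 5 and 7 did not overlap for any Kupffer marker but Marco. Csf1r, for example, read 8.65 to 8.68 in number 5 and 7.94 to 8.26 in number 7. In knockout vehicle most Kupffer markers overlapped between numbers. The part of the layout in these list values was not tested. Stellate cell markers had 1 negative of 10 (Rgs5), lymphocyte markers 2 negative of 8 and cholangiocyte markers 1 positive of 5. Rgs5 and Gimap6, named above, had negative differences too, and the part of the endothelial list in their values was not tested.

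Of 14 measured genes of the circadian clock, 13 had OCA effects of opposite sign in the genotypes, against 8913 of all 18820 genes. At unadjusted p below 0.05 there were 3 positive (Per2, 0.84 ± 0.33, Tef, 0.56 ± 0.23 and Cry2, 0.24 ± 0.10) and 3 negative (Arntl, -1.19 ± 0.38, Npas2, -1.08 ± 0.35 and Clock, -0.43 ± 0.19). Arntl, Clock and Npas2 encode activators of the clock loop and had negative differences, while Per2, Cry2 and Tef, which those activators induce, had positive ones. Without 1 array the counts ran from 1 to 5 positive, 1 without wild-type vehicle replicate 5, and from 2 to 4 negative. Most clock genes also differed by array number among vehicle arrays: the 2 numbers did not overlap for 9 of 14 in wild type and 10 of 14 in knockout, beside 19.2% and 19.7% of all genes. Per1 and Cry1 were among those that overlapped in wild type, and Bhlhe41 overlapped in both genotypes. Arntl read 6.40 and 5.52 in wild-type vehicle replicates 5 and 6, which carry number 5, and 4.25 to 5.03 in the other 4. Ciart, a clock repressor, read 7.26 and 7.70 in the knockout vehicle arrays of number 9 and 8.54 to 8.78 in those of number 7. Within wild-type vehicle number 5 the pair did not match either, with Ciart at 5.51 in replicate 5 and 9.01 in replicate 6. With the number block 5 were positive and 4 negative, and Per3 (1.98 ± 0.37, adjusted p = 0.0416) and Tef (1.06 ± 0.21, adjusted p = 0.0416) passed. The sources used here give no hour of collection, and its part in the result was not tested.

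**Figure D5:**
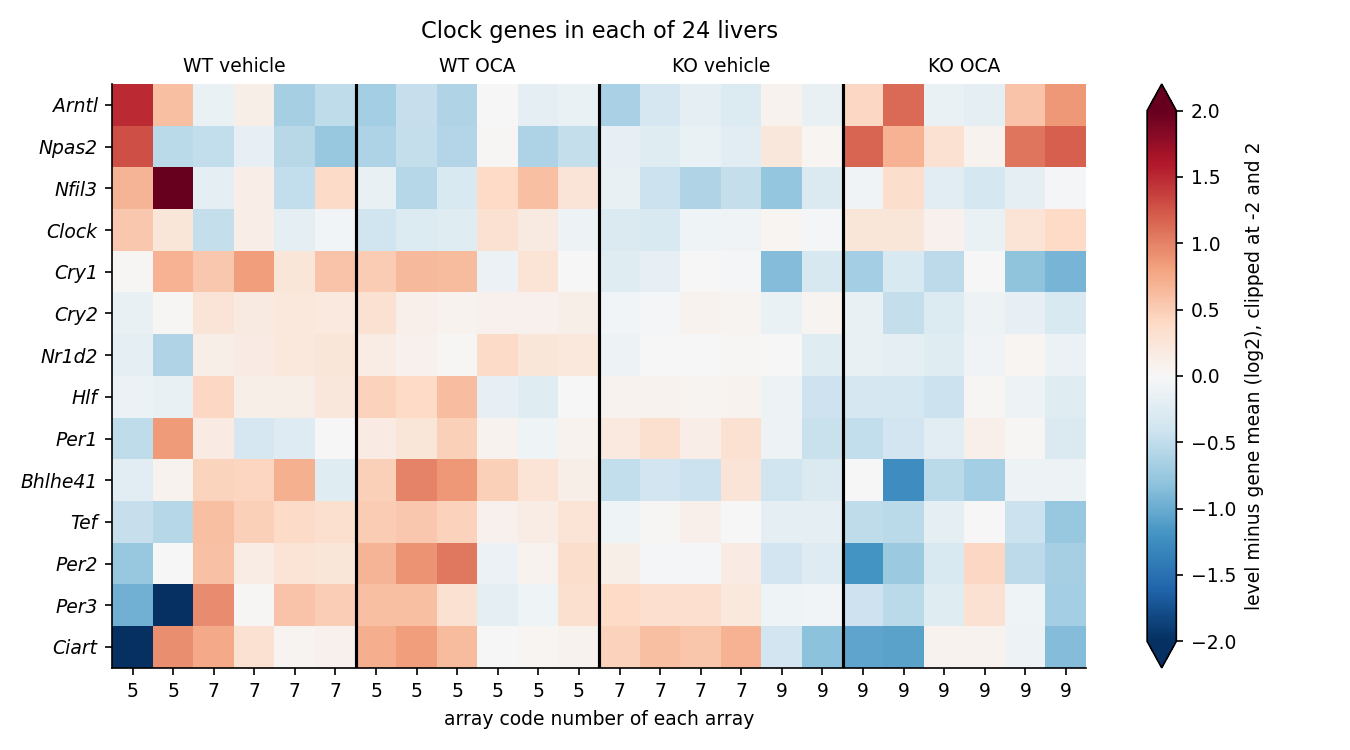
Log2 levels of 14 clock genes (rows) in the 24 arrays (columns, by group and array code number), as deviations from the mean of each gene with colours limited to -2 and 2. For Arntl, vehicle arrays of number 5 lie above those of number 7 in wild type, and those of number 9 above those of number 7 in knockout, while Bhlhe41 overlaps between numbers in both.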

How the data were processed

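Liver RNA of 24 mice was measured on whole-transcript arrays (MoGene 1.1 ST), 1 array per mouse. The authors made the deposited log2 values with RMA, per the submitters' processing notes. Their version and log base are unstated in the sources used here; the values spanned 0.87 to 13.6, and base 2 was taken from that range. Medians per array were 4.57 to 4.65, and the number of arrays limits the precision. Per the labels' protocols RNA came from an RNeasy micro kit and was amplified with the Ambion WT expression kit and labelled with biotin.

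Of 35556 probe sets, 21218 carried 1 gene symbol and were used, 1881 carried several and 12457 none. Symbols were updated for 21185 probe sets through a RefSeq table, and the highest-mean probe set was kept for each of 18820 genes. Means of the 4 groups were fitted in R 4.3.3 using lmFit and eBayes of limma 3.58.1 (20 residual and 4.46 prior degrees of freedom), with contrasts for OCA in each genotype, their difference and their average. Benjamini-Hochberg adjustment ran over all 18820 genes, and genes were called below 0.05. The fit was tested on simulated data. Promoters were searched in Python 3.11.15, and figures drawn with matplotlib 3.10.9.

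The members, the 25 gene lists and the naming rule were chosen with earlier results of these data known. The rule named Nr1h4, Nr0b2, Slc51a, Slc51b, Abcb11, Cyp7a1, Cyp8b1, Csad, Enpp6 and Sccpdh always. It added the 10 smallest p each way for the difference among genes at or above the median level, the calls of the other contrasts (at most 15 for each genotype), and 1 gene per pathway list, skipping predicted genes, which gave 44. Other genes in the text, such as Acta2, Cdkn1a, Usp2, Adipoq, Retn and Marco, further list members and 3930402G23Rik, were picked after their values were seen. Alternatives were centring, quantile normalization, 2 filters, trend with robust eBayes, array weights, blocks for array code number, letter and replicate number, subsets of arrays, other probe set rules and log2 of signal plus 16. Weights per genotype and the list counts by layout were chosen after the data were seen.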

Additional observations from a re-analysis of the deposited data

Results flagged for a closer look

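Among 176 group and gene combinations (44 named genes in 4 groups), 8 had 1 array far from the other 5. Chance would flag about 1 in 20 separate combinations, but these genes share the same arrays. The count therefore cannot be read against that rate. In wild-type vehicle, Cyp8b1 read 11.51 in replicate 4, above the other 5 arrays. Wild-type vehicle replicate 6 was the distant array for Myo9b (7.07), Fgfr2 (6.90) and Slc2a2 (11.53), where it was lowest, and for Gimap6 (6.98), where it was highest. It is the array with 532 genes over 2-fold from the mean of the rest of its group. In knockout OCA, Ntn4 read 5.47 in replicate 2, below the rest. In knockout vehicle, replicate 6 was lowest for Fitm1 (10.98) and for Cyp2b10 (9.74).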

How the results depend on the processing

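All values are limma fits changing 1 choice, or the 2 named together, and where a value moved the cause was not tested unless the setting tests fewer genes or arrays. The difference had 0 calls with centring, quantile normalization, both filters, trend with robust eBayes, the letter block, without the _2 arrays, either other probe set rule and log2 of signal plus 16. It had 2 calls with array weights (Cyp8b1 and Slc13a2), 1 with weights per genotype, 34 with the number block, 1 with numbers 5 and 9 only (Enpp6), 12 with that block when wild-type vehicle replicate 6 was dropped, and 0 to 3 without 1 array. Unadjusted counts were 740 above the median gene, 2448 with the number block, 2072 with numbers 5 and 9, 1780 with the block without replicate 6 and 1003 to 1313 without 1 array.

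Calls in wild type, in knockout and on average numbered 22, 0 and 1 above the median gene, 24, 1 and 5 at a signal of 20 or more, 5, 11 and 7 with array weights and 21, 5 and 5 with log2 of signal plus 16. They were 667, 0 and 6 with the number block, 269, 0 and 0 with numbers 5 and 9, 77, 0 and 8 with the block without replicate 6, and 7, 0 and 1 without the _2 arrays. Weights per genotype gave 2 in wild type and 5 in knockout, and the letter block 2 and 0. Without 1 array they ranged from 2 to 21, from 0 to 4 and from 1 to 10. Wild-type calls were 3, 5 and 2 without wild-type OCA replicates 2, 3 and 5, 7 without vehicle replicate 2 or 4, and average calls 7 and 10 without vehicle replicates 5 and 6.

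With the replicate number as a block, 0 differences, 4 wild-type, 3 knockout and 4 average calls were made. Same-numbered arrays correlated at -0.082 to 0.17 in their deviations. Low correlations cannot exclude a shared factor, and the replicate numbers were used as names of samples, not as pairs.

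List medians moved with the number block and with numbers 5 and 9 for cholangiocytes (0.4255), acute phase proteins (-0.2936), Kupffer cells (-0.8314) and neutrophils and monocytes (-0.5545). With the block without replicate 6 they were 0.4118 for cholangiocytes, -0.7105 for Kupffer cells and -0.0871 for transporters. The filters gave -0.1695 for cholangiocytes and -0.2874 for lymphocytes.

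Signs turned for Nr1h4 (9e-04 centred, 0.0027 quantile, 0.0087 weights, 0.0795 without the _2 arrays, 0.0856 with the block without replicate 6, -0.0661 to 0.0205 without 1 array) and Abcb11 (0 centred, 0.0859 with the number block and numbers 5 and 9, -0.1256 to 0.0405 without 1 array). They also turned for Cyp7a1 (0.4839 with the number block and numbers 5 and 9), Cyp2b10 (0.2165) and Mt2 (0.3096), the last 2 with the block without replicate 6. Of all alternatives for named genes, 1668 kept sign and side of the threshold and 14 passed newly. Since no difference passed in the 4-group model, keeping the side was likely beforehand, and the count does not measure whether sizes held. Levels near the bottom of the scale limit Slc51a and Far2. The knockout levels of Slc51b (3.11 to 3.97) and Nr0b2 (3.40 to 4.82) are low too. So are the wild-type levels of Mogat2 (3.93 to 4.73) and all levels of Gngt1 (3.41 to 4.13). These low levels limit what those effects can show.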

Other observations

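Markers outside the hepatocyte were high in single arrays. Marco, a scavenger receptor of Kupffer cells, read 9.64 in knockout OCA replicate 3, 9.11 in wild-type OCA replicate 6 and 7.89 in wild-type vehicle replicate 6. Adipoq, the fat cell hormone adiponectin, read 4.36 in wild-type vehicle replicate 5 and 2.57 to 2.97 in the other 23 arrays. Retn, which encodes resistin, read 6.13 in the same array and 3.30 to 5.51 in the others. Both had called differences when arrays were blocked by number and wild-type vehicle replicate 6 was dropped (Adipoq -1.41, adjusted p = 2.61e-05; Retn -2.999, adjusted p = 0.00309; limma), the fit in which replicate 5 is the only wild-type vehicle array of its number.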
